A study of Mus musculus with 6 samples.

Results

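The Hippo kinase cascade was examined in bone marrow-derived macrophages (BMDM) as 10 genes of the RNA-Seq counts table, matched by symbol among 55453. They comprise the MST kinases *Stk4* (MST1) and *Stk3* (MST2), their scaffold *Sav1*, the LATS kinases *Lats1* and *Lats2*, the MOB1 coactivators *Mob1a* and *Mob1b*, the membrane-associated adaptor *Nf2* (merlin), and the upstream kinases *Map4k4* and *Stk25*. The series holds 6 libraries, 3 per genotype. PP2Ac KO libraries came from C57BL/6 mice carrying loxP sites around the first exon of *Ppp2ca*, the gene for the alpha isoform of the PP2A catalytic subunit, and Cre recombinase under the *Lyz2* (LysM) promoter, which acts in myeloid cells (*LysMcre PP2Ac fl/fl*). PP2Ac WT libraries came from C57BL/6 mice that are not stated to carry Cre or the floxed allele, so the deletion, the Cre insertion and the colony cannot be told apart. The labels give no treatment. The study describes the RNA-Seq of these macrophages as done on cells treated with the STING agonist cGAMP in both genotypes, so that no library stands for untreated cells. Cells were grown from bone marrow with M-CSF or with medium conditioned by L929 fibroblasts, and the labels do not say which. The methods describe replicates of cell experiments as biological in general, without saying whether the 3 libraries of a genotype came from separate mice or from cultures of 1 mouse, so the p-values measure only the spread between these libraries.

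In the Hippo pathway, MST kinases bound to SAV1 phosphorylate and activate LATS kinases together with MOB1, and LATS kinases phosphorylate the transcriptional coactivators YAP and TAZ, which keeps these out of the nucleus and away from TEAD transcription factors. Merlin recruits LATS to the plasma membrane, and MAP4K kinases can phosphorylate LATS in parallel to MST. STRIPAK, a complex built around PP2A and striatins, removes activating phosphates from MST and MAP4K kinases. The cascade is therefore controlled largely at the level of protein phosphorylation, which RNA levels do not measure. In macrophages, MST kinases are known for roles in antimicrobial and antiviral signaling.

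The libraries held 35257156 to 47390899 counts. *Ppp2ca* had 47, 33 and 38 counts with PP2Ac KO, against 10654, 8913 and 8279 with PP2Ac WT, as the labels say. The macrophage markers *Csf1r*, *Cd68*, *Adgre1* and *Cd14* were abundant in both genotypes, with means of 1122 to 3404 CPM (counts scaled to library size and TMM factors). The TMM factors were lower in every PP2Ac KO library (0.910 to 0.937) than in any PP2Ac WT library (1.05 to 1.10). *Lyz2*, the gene whose promoter drives the Cre, was counted at 7.30 CPM in PP2Ac WT and 8.85 CPM in PP2Ac KO, and its close paralog *Lyz1* at 95.4 and 46.3 CPM. How the counting divided reads between these 2 genes is not given in the sources used here, so neither value can be taken as the level of that gene alone. Of 13680 genes tested in all, 48.7% of those that changed were higher in PP2Ac KO, and 38.4% with upper-quartile scaling. Other cell types' markers also differed. All 6 fibroblast markers tested were lower in PP2Ac KO, with a summed level of 24.9 to 37.3 CPM against 80.8 to 125 CPM, and the seventh, *Lum*, was close to 0. Of 3 endothelial markers tested, *Kdr* and *Cdh5* were higher, with a list sum of 201 to 250 CPM against 86.8 to 138 CPM, while the fourth, *Tek*, was close to 0. In bulk RNA, fewer cells of a type and less RNA per cell cannot be told apart.

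Sequences before the start of *Sav1*, *Mob1a* and *Lats1* are shown. These genes have 3 different roles, the scaffold of MST, a coactivator of LATS and a LATS kinase. They were chosen because all were called higher in PP2Ac KO, *Lats1* not under every setting. The sequences come from RefSeq promoter windows on GRCm38.p6, which hold an entry for 8 of the 10 genes, with no entry for *Stk3* and *Map4k4*. Each stretch is read 5′ to 3′ on the gene's strand and ends before the annotated start. Capitals mark matches, on either strand, to GGAATG (the TEAD motif), GGGCGG (Sp1) or CCAAT. *Sav1* is on the minus strand at chr12:69987003-69987252, *Mob1a* on the plus strand at chr6:83325789-83326015, and *Lats1* on the plus strand at chr10:7680959-7681208.
Sav1: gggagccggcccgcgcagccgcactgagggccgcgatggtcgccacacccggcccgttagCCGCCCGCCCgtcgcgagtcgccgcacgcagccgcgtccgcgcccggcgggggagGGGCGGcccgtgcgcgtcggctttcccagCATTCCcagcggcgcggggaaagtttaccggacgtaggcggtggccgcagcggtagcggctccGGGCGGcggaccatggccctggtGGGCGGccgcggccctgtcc
Mob1a: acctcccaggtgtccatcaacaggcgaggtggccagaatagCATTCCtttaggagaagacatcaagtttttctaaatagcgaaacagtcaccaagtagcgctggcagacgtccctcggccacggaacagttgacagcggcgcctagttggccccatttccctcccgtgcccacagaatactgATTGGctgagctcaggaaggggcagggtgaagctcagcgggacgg
Lats1: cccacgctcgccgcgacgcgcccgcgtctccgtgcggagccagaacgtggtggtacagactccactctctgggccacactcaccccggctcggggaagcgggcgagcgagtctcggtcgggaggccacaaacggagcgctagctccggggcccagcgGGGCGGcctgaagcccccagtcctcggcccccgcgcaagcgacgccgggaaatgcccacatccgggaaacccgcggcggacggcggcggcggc

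*Sav1* held 1 match to the TEAD motif and 5 to the Sp1 motif, of which 2 overlap. *Mob1a* held 1 TEAD match and 1 CCAAT match, and *Lats1* a single Sp1 match. Over the 250 bases before the start in all 10 windows of the 8 genes (*Nf2* and *Lats2* have 2 each), 2 windows held a TEAD match, against 12.6% of 32851 windows of the same length. Sp1 matches were present in 7 of the 10 windows and in 32.7% of all windows, and CCAAT matches in 3 of 10 and in 33.8%. The interferon-related motifs TTCNNNGAA (GAS) and GAAANNGAA (part of the ISRE) were in 0 and 1 of the 10 windows, against 7.02% and 7.13% of all windows, and the 1 match was in a *Lats2* window. Most of the windows were rich in CpG. The upper middle value of the 10 windows was 20 CpG sites, and that of GC content 62.4%. Medians over all windows were 6 CpG sites and 52.4%. Below both lay 1 *Nf2* window (2 CpG sites, 33.6% GC) and 1 *Lats2* window (4 CpG sites, 44.8% GC), and the other windows lay above both. The matches describe letters in these windows, and binding was not measured.

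All 10 genes were expressed and passed the filter on low counts, with 947 to 21265 counts in any library. Compared as RPKM, which is CPM per kilobase of exon, the level spanned 21.6-fold. *Mob1a* was the most abundant, with a mean of 85.8 RPKM over the 6 libraries (range 66.7 to 104.5), above 96.1% of the genes tested. It was followed by *Map4k4* (33.1 RPKM), *Stk4* (24.9 RPKM), *Sav1* (20.0 RPKM), *Nf2* (13.4 RPKM) and *Stk25* (8.22 RPKM). The lowest were *Lats1* (5.71 RPKM), *Stk3* (4.69 RPKM), *Mob1b* (4.39 RPKM) and *Lats2* (3.98 RPKM). For *Lats2* 42.4% of the exonic bases are shared with another gene on its strand, which limits its rank. Ranges over the 6 libraries overlapped between *Stk4* and *Sav1* and between each neighboring pair from *Lats1* to *Lats2*, and did not overlap between the other neighbors. Within single libraries *Lats1* was above *Stk3*, and *Stk3* above *Mob1b*, in 6 of 6.

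PP2Ac KO BMDM had higher RNA levels of the scaffold *Sav1*, the coactivator *Mob1a*, the MST kinase *Stk3* and the LATS kinase *Lats1* than PP2Ac WT BMDM. Increases ranged from 1.20- to 1.60-fold. These 4 of 10 genes passed an FDR of 0.05 in edgeR's quasi-likelihood test, where 18.1% of all genes tested were called higher. By the same test 0 of 10 were lower, against 19% of all genes. At an unadjusted p of 0.05, edgeR, DESeq2 and limma-voom each gave 0 lower and 5 higher members. Shares of all genes at an unadjusted p were not computed, so counts by that rule have no background here. In CPM, the 3 PP2Ac KO libraries lay above all 3 PP2Ac WT libraries for the same 4 genes, which held for 24.1% of all genes. They lay below for 0 genes, against 26.8%. For *Lats1* the separation rested on the TMM factors, and the FDR call was lost under 5 of 13 alternative settings. No member passed a log2 fold change over 1 with an FDR under 0.01, a rule that 6.35% of all genes met. The median log2 fold change of the 10 genes was 0.14, beside −0.02 over all genes tested. In the same PP2Ac KO libraries the fibroblast markers were lower and *Kdr* and *Cdh5* higher, and their part in these differences was not tested.

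**Figure D1:**
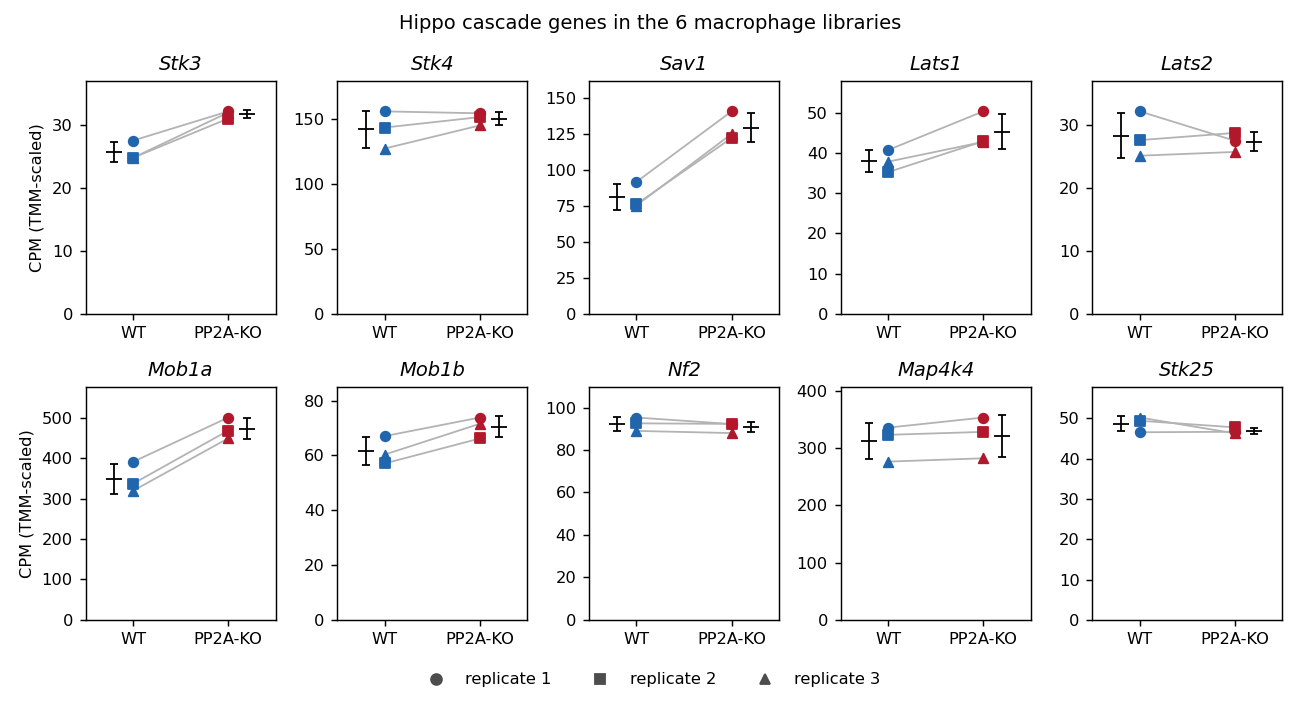
Level of each of the 10 cascade genes in CPM (y axis, from 0, TMM-scaled) in the 3 PP2Ac WT (blue) and 3 PP2Ac KO (red) libraries. Symbols give the replicate number, gray lines join libraries with the same number, and black bars are the mean ± SD (n = 3). Red and blue symbols are fully separated for *Stk3*, *Sav1*, *Lats1* and *Mob1a*, and overlap for the other 6 genes.

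*Sav1* (chr12:69965012-69987002, minus strand, GRCm38) encodes the scaffold that joins MST to LATS. Its level was 141, 122 and 125 CPM in PP2Ac KO replicates 1 to 3, against 91.6, 76.2 and 75.2 CPM for PP2Ac WT. The lowest PP2Ac KO library was well above the highest PP2Ac WT library, and the fold difference was the largest among the 10 genes. The log2 fold change was 0.67 ± 0.09 (SE, FDR = 5.77e-04, edgeR), a 1.60-fold increase with a 95% interval of 0.47 to 0.88 on the log2 scale, and 8.18% of genes tested had a larger one. Of the exonic bases of *Sav1*, 25.4% also lie in exons of *Atl1* on the opposite strand, and the strand setting of the counting is not given in the sources used here. *Atl1* itself had 1.65 ± 0.28 CPM in PP2Ac KO, against 1.98 ± 0.31 CPM for PP2Ac WT (SD, n = 3).

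*Mob1a* (chr6:83326016-83343776, plus strand) encodes a coactivator that binds LATS kinases once phosphorylated by MST. It had 501, 469 and 450 CPM in PP2Ac KO, against 391, 337 and 320 CPM for PP2Ac WT, without overlap. The log2 fold change was 0.44 ± 0.09 (FDR = 0.00421, edgeR), a 1.35-fold increase of the most abundant RNA of the cascade. Its paralog *Mob1b* (chr5:88720855-88764220, plus strand) had 73.8, 66.2 and 71.6 CPM in PP2Ac KO, against 67.1, 57.1 and 60.3 CPM for PP2Ac WT. The groups overlapped, since replicate 1 of PP2Ac WT exceeded replicate 2 of PP2Ac KO, but each PP2Ac KO library was above the PP2Ac WT library of its number. The log2 fold change of *Mob1b* was 0.20 ± 0.08 and was not called by genotype alone (FDR = 0.0663, edgeR). It was called with the replicate number as a block (FDR = 0.00216), and also when replicate 1 of PP2Ac WT was left out (log2 fold change 0.27, FDR = 0.0129).

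*Stk3* (chr15:34875496-35178921, minus strand) encodes MST2. It had 32.1, 31.0 and 31.9 CPM in PP2Ac KO, against 27.5, 24.8 and 24.7 CPM for PP2Ac WT. The PP2Ac KO values were tightly grouped and all above PP2Ac WT, with a log2 fold change of 0.30 ± 0.07 (FDR = 0.00591, edgeR). *Stk4* (chr2:164070322-164155524, plus strand) encodes MST1, the more abundant of the 2 kinases. It had 154, 151 and 145 CPM in PP2Ac KO, against 155, 143 and 127 CPM for PP2Ac WT. The highest of the 6 values was in PP2Ac WT and the groups overlapped, with a log2 fold change of 0.08 ± 0.08 (FDR = 0.473, edgeR) and a 95% interval of −0.10 to 0.26.

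*Lats1* (chr10:7681214-7716460, plus strand) encodes a kinase that phosphorylates YAP and TAZ. It had 50.4, 43.0 and 42.8 CPM in PP2Ac KO, against 40.8, 35.3 and 37.9 CPM for PP2Ac WT. The groups did not overlap in CPM, but the lowest PP2Ac KO value was close to the highest PP2Ac WT value. As a share of all counts, without TMM factors, the groups overlapped. By that measure replicate 3 of PP2Ac KO (1787 of 44530094 counts) was below replicate 1 of PP2Ac WT (2027 of 47390899). The log2 fold change was 0.26 ± 0.08 (FDR = 0.0380, edgeR). The call was lost without replicate 1 of PP2Ac KO (log2 fold change 0.17, FDR = 0.133), replicate 2 of PP2Ac KO (0.30, FDR = 0.0549), replicate 2 of PP2Ac WT (0.21, FDR = 0.137) or replicate 3 of PP2Ac WT (0.26, FDR = 0.0736), and with upper-quartile scaling (0.19, FDR = 0.0747). *Lats2* (chr14:57689662-57758388, minus strand) had 27.4, 28.7 and 25.7 CPM in PP2Ac KO, against 32.1, 27.5 and 25.1 CPM for PP2Ac WT. These values overlapped throughout, with a log2 fold change of −0.05 ± 0.09 (FDR = 0.694, edgeR; 95% interval −0.26 to 0.16). In the annotation 42.4% of the exonic bases of *Lats2* are shared with *Gm49361* on the same strand, which had 0 counts in every library. How the counting treated reads in shared bases is not given in the sources used here. The level of *Lats2* per length and its ratio to *Lats1* carry this limit.

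The 3 remaining genes act upstream of or beside MST. *Nf2* (chr11:4765845-4849536, minus strand) had 92.2, 92.3 and 88.0 CPM in PP2Ac KO, against 95.3, 92.5 and 89.0 CPM for PP2Ac WT, for a log2 fold change of −0.02 ± 0.06 (FDR = 0.787, edgeR; 95% interval −0.15 to 0.11). *Map4k4* (chr1:39900913-40026310, plus strand), a kinase that can activate LATS and that STRIPAK binds, had 354, 328 and 282 CPM in PP2Ac KO, against 336, 323 and 276 CPM for PP2Ac WT. In both genotypes its level was highest in replicate 1 and lowest in replicate 3, the groups overlapped, and the log2 fold change was 0.04 ± 0.10 (FDR = 0.772, edgeR; 95% interval −0.19 to 0.27). *Stk25* (chr1:93619751-93658659, minus strand), another STE20-type kinase with links to LATS activation, had 46.7, 47.7 and 46.3 CPM in PP2Ac KO, against 46.5, 49.4 and 50.2 CPM for PP2Ac WT. The genotypes overlapped for *Stk25* and for *Nf2*. The log2 fold change of *Stk25* was −0.05 ± 0.06 (FDR = 0.483, edgeR; 95% interval −0.18 to 0.07). Of the exonic bases of *Stk25*, 23.6% overlap *Farp2* (3.28 ± 0.32 and 3.73 ± 0.40 CPM in PP2Ac KO and PP2Ac WT, SD, n = 3) or *Gm28536*, which had at most 1 count, both on the opposite strand. The upper bounds for *Stk4* and *Map4k4* reached the change measured for *Lats1*, whereas those for *Nf2*, *Lats2* and *Stk25* stayed below it.

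**Figure D2:**
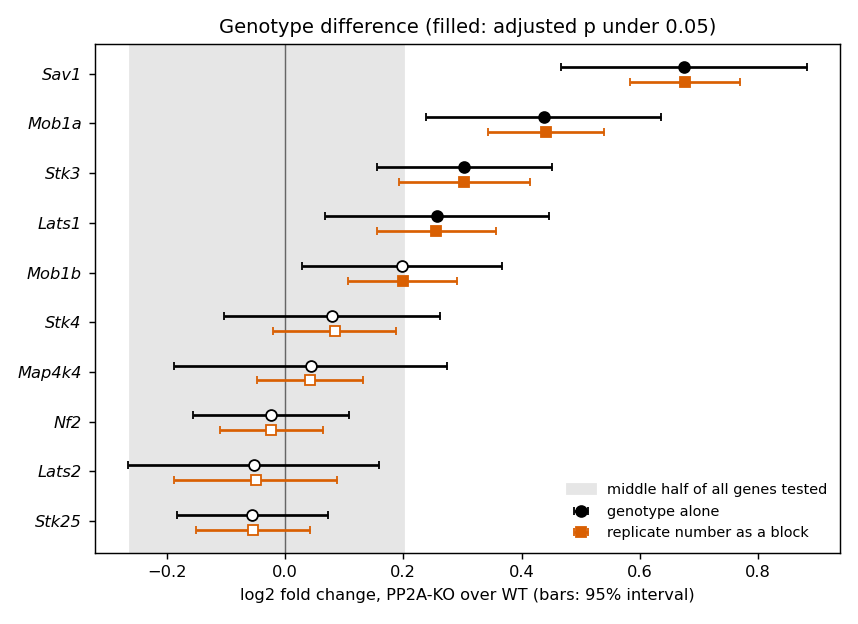
Log2 fold change of PP2Ac KO over PP2Ac WT for each cascade gene (x axis) with its 95% interval, from edgeR with genotype alone (black circles) and with a block for the replicate number (orange squares). Filled symbols have an FDR under 0.05, and the gray band runs from the lower to the upper quartile of all genes tested (−0.26 to 0.20). *Sav1*, *Mob1a*, *Stk3* and *Lats1* lie to the right of the band, and *Mob1b* is filled only in the blocked fit.

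Libraries were also compared within each replicate number. PP2Ac KO was above PP2Ac WT in 3 of 3 pairs for *Sav1*, *Mob1a*, *Stk3*, *Lats1*, *Mob1b* and *Map4k4*. For *Sav1*, *Mob1a*, *Stk3* and *Lats1* this count restates the separation of the groups in CPM, since any pairing would give it. The paired log2 difference ran from 0.62 to 0.73 for *Sav1*, from 0.36 to 0.49 for *Mob1a*, from 0.22 to 0.37 for *Stk3* and from 0.18 to 0.31 for *Lats1*. It was smaller for *Mob1b* (0.14 to 0.25) and near 0 for *Map4k4* (0.02 to 0.07). *Nf2* was below PP2Ac WT in 3 of 3 pairs, also by little (−0.0472 to −0.00398), and *Stk4*, *Lats2* and *Stk25* were above in 2, 2 and 1 of 3. The share of all genes with 3 of 3 pairs in 1 direction was not computed, so these pair counts have no background here. With the replicate number as a block, 5 of 10 members were higher, where 24.4% of all genes were, and 0 were lower, where 26.4% were. *Lats1* kept its call in that fit (FDR = 7.64e-04), whereas *Map4k4* was not called (FDR = 0.414).

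Paralogs were next compared within a library, where library size cancels. No stretch of 50 bases was shared between the transcripts of *Stk3* and *Stk4*, *Lats1* and *Lats2*, or *Mob1a* and *Mob1b*, so a read of that length or more could not match both exactly. Per exonic length, *Stk4* RNA exceeded *Stk3* RNA 5.00-, 5.09- and 4.73-fold with PP2Ac KO, against 5.90-, 6.03- and 5.35-fold with PP2Ac WT. The ratio was lower in all 3 PP2Ac KO libraries than in any PP2Ac WT library. On the log2 scale the count ratio was 2.24 ± 0.06 in PP2Ac KO and 2.46 ± 0.09 in PP2Ac WT (SD, n = 3; difference −0.22, exact permutation test, two-sided p = 0.1, adjusted p = 0.15 over 3 ratios). With 3 against 3 libraries 0.1 is the smallest p this test can give.

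For the MOB1 pair, *Mob1b* reached 0.0470, 0.0450 and 0.0508 of the *Mob1a* level per length in PP2Ac KO and 0.0546, 0.0540 and 0.0602 in PP2Ac WT. Again the genotypes did not overlap (log2 difference −0.24, exact permutation p = 0.1, adjusted p = 0.15). For the LATS pair, *Lats2* reached 0.569, 0.699 and 0.627 of the *Lats1* level in PP2Ac KO and 0.824, 0.817 and 0.692 in PP2Ac WT. Here replicate 2 of PP2Ac KO exceeded replicate 3 of PP2Ac WT and the groups overlapped (log2 difference −0.30, exact permutation p = 0.2, adjusted p = 0.2). Within replicate numbers 1 to 3, the log2 ratio differed by −0.24, −0.24 and −0.18 for *Stk4* over *Stk3*, by −0.22, −0.26 and −0.25 for *Mob1b* over *Mob1a*, and by −0.53, −0.23 and −0.14 for *Lats2* over *Lats1*. All 9 paired differences were below 0, and those of the LATS pair were the most spread. In each ratio the divisor was the paralog called higher above, so these signs restate the fold changes of the members. Since the permutation test cannot pass 0.05 with these numbers of libraries, its p-values decide nothing about whether paralogs responded differently.

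**Figure D3:**
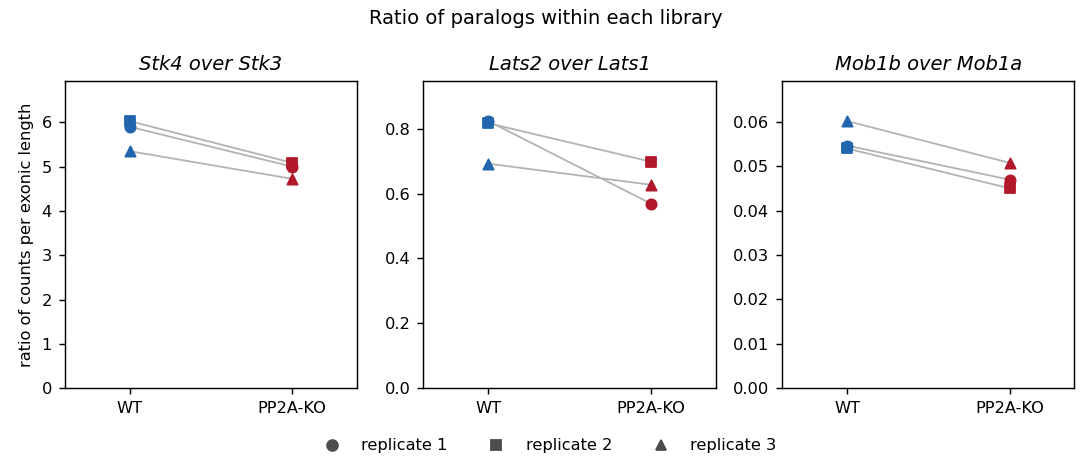
Ratio of paralogs per exonic length within each library (y axis, from 0, no unit) for *Stk4* over *Stk3*, *Lats2* over *Lats1* and *Mob1b* over *Mob1a*. Blue symbols are PP2Ac WT and red symbols PP2Ac KO, gray lines join the same replicate number, and all 9 lines fall from PP2Ac WT to PP2Ac KO.

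Genes related to the cascade by sequence or function were then described, 54 of 58 of which passed the filter. At an FDR of 0.05 the PP2Ac KO level was higher for 9 and lower for 19 of these, against 4 and 0 of the cascade. Over all genes tested the shares were 18.1% and 19%, which are also the background for each list that follows. Among 11 further STE20 kinases, 1 was higher and 2 were lower (median −0.07 on the log2 scale). *Taok3*, a TAO kinase of the family that phosphorylates MST, rose by 0.59 ± 0.09 (FDR = 8.82e-04), while *Map4k5* and *Mink1*, relatives of *Map4k4*, fell by 0.27 ± 0.08 (FDR = 0.0199) and 0.18 ± 0.06 (FDR = 0.0416). The 2 lower calls were both lost without replicate 2 of PP2Ac KO or replicate 2 or 3 of PP2Ac WT, and that of *Mink1* also without replicate 1 or 3 of PP2Ac KO, with RLE scaling, without a filter and in DESeq2. Among 7 NDR kinases and MOB relatives, 3 were higher and 2 lower (median 0.05). *Stk38l*, an NDR kinase that uses MOB1 and resembles LATS, rose by 0.64 ± 0.13 (FDR = 0.00504) and *Mob3c* by 0.53 ± 0.07 (FDR = 4.98e-04). *Mob3b*, named after its values were seen, rose by 0.46, and its call was lost without replicate 1 or 2 of PP2Ac KO or replicate 2 of PP2Ac WT. *Mob3a* fell by 0.58 ± 0.10 (FDR = 0.00197) and *Mob2*, which competes with MOB1 for NDR kinases, by 0.28 ± 0.09 (FDR = 0.0348), of which only the call of *Mob3a* remained without replicate 1 or 2 of PP2Ac KO or replicate 2 or 3 of PP2Ac WT.

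Of the RASSF adaptors, whose SARAH domains can pair with those of MST, 5 of 6 were tested, and 1 rose and 2 fell (median 0.01). *Rassf1* rose by 0.30 ± 0.06 (FDR = 0.00462), and the abundant *Rassf3* and *Rassf2* fell by 0.57 ± 0.08 (FDR = 8.22e-04) and 0.28 ± 0.07 (FDR = 0.00803). Of 12 STRIPAK subunits tested, 4 rose and 2 fell (median 0.09). The largest increases were those of *Pdcd10* (0.38 ± 0.08, FDR = 0.00696), which ties STE20 kinases such as *Stk25* to the complex, and *Cttnbp2nl* (0.33 ± 0.07, FDR = 0.00621). *Ppp2r1a*, the PP2A scaffold subunit, named after its values were seen, rose by 0.20. *Strn4*, a striatin that acts as the regulatory subunit of PP2A, fell by 0.19 ± 0.06 (FDR = 0.0399), and *Sike1* by 0.17 ± 0.06 (FDR = 0.0492). The *Strn4* and *Sike1* calls were both lost with RLE scaling, without a filter and in DESeq2, and 2 subunits in place of 4 were higher with upper-quartile scaling or without a filter. Without replicate 1 or 2 of PP2Ac KO or replicate 2 or 3 of PP2Ac WT, 2 subunits were higher and 0 lower, and without replicate 3 of PP2Ac KO or replicate 1 of PP2Ac WT 1 was lower.

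All 14 membrane and junction regulators had a log2 fold change below 0 (median −0.63), beside a median of −0.02 over all genes tested. The share of all genes below 0 was not computed. Of the 14, 8 passed the FDR, where 19% of all genes were called lower, and 12 did with the replicate block, where 26.4% were. *Fat1*, an atypical cadherin, fell by 1.75 ± 0.29 (FDR = 0.00150) and the polarity gene *Pard3* by 1.52 ± 0.32 (FDR = 0.00538). In PP2Ac WT, 9 of the 14 had a mean under 3 CPM, among them *Fat1* at 1.78 CPM and *Pard3* at 0.64 CPM. The fibroblast markers differed in the same direction. The most abundant of the 14, *Limd1*, named after its values were seen, was at 92.3 CPM in PP2Ac WT. It was not called by genotype alone (−0.12 ± 0.06, FDR = 0.120) but was with the replicate block (FDR = 0.0288). Of 6 effectors tested, 3 fell and 0 rose by edgeR, DESeq2 or limma-voom (0 at an unadjusted p of 0.05 in edgeR), with a median of −1.08. *Yap1* fell from 1.52 ± 0.57 to 0.36 ± 0.03 CPM (log2 fold change −2.08 ± 0.34, FDR = 0.00142) and *Tead1* from 1.97 ± 0.38 to 0.60 ± 0.10 CPM (−1.70 ± 0.22, FDR = 4.84e-04). *Vgll3*, named after its values were seen, fell by 1.22. *Vgll4*, also named after its values were seen, was the most abundant effector, at 62.4 CPM in PP2Ac WT and 65.6 CPM in PP2Ac KO. It was not called (0.07 ± 0.09, FDR = 0.580). The other effectors tested had means under 3 CPM in both genotypes. Fibroblast markers fell as the called effectors did, and their part in this was not tested. *Wwtr1*, the TAZ gene, was at 0.85 ± 0.35 CPM in PP2Ac WT and 0.48 ± 0.15 CPM in PP2Ac KO and was not called (−0.85 ± 0.37, FDR = 0.102). Its log2 fold change ran from −1.12 without replicate 3 of PP2Ac WT, where it was called (FDR = 0.0196), to −0.55 without replicate 1 of PP2Ac WT (FDR = 0.296), and it was also called without a filter (FDR = 0.0351).

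**Figure D4:**
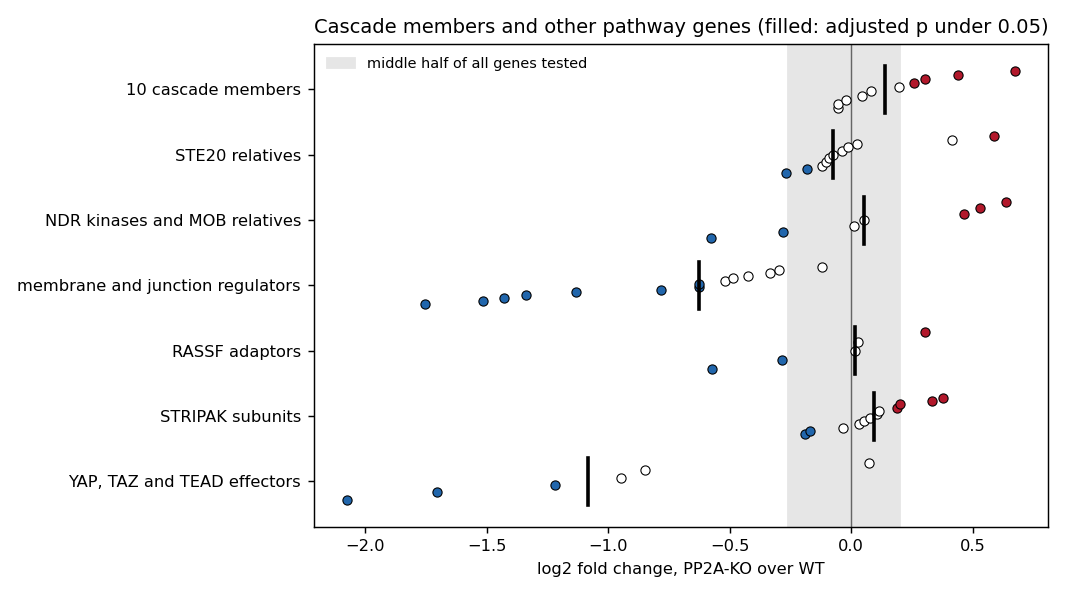
Log2 fold change of PP2Ac KO over PP2Ac WT (x axis) for the 10 cascade genes and for each list of other pathway genes (y axis). Each point is a gene, filled red or blue where it was higher or lower at an FDR under 0.05, black bars are medians, and the gray band runs from the lower to the upper quartile of all genes tested. The cascade has a median of 0.14 and no blue point, and the membrane regulators and effectors have medians of −0.63 and −1.08 and no red point.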

How the data were processed

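RNA-Seq of 6 BMDM libraries (3 PP2Ac KO, 3 PP2Ac WT) was analysed from a single deposited table of raw counts per gene symbol, without normalization, on mm10. RNA was poly(A)-selected and libraries were made with a directional kit and sequenced in pairs. The submitters' processing notes name fastp 0.20.0, STAR 2.7.1a, kallisto 0.46.1, HTSeq 0.11.2, edgeR 3.34.0 and limma 3.48.3 without their roles. The counting program, its strand setting and the annotation release are not given in the sources used here. Groups came from the titles in the labels.

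Counts were tested in R 4.3.3 with edgeR 4.0.16 (filterByExpr with minimum count 10 and minimum total 15, TMM, glmQLFit and glmQLFTest for genotype), adjusting p by Benjamini-Hochberg across the 13680 genes that passed. An FDR is such an adjusted p. CPM used TMM factors (0.910 to 0.937 in PP2Ac KO and 1.05 to 1.10 in PP2Ac WT), RPKM the union of exons in GENCODE M21, where 98.3% of symbols occur. Errors of levels are SD and errors of log2 fold changes SE. With at least 947 counts per member and library, counting error was at most 3.25%. The labels give both genotypes replicate numbers 1 to 3, without saying what a number marks. Deviations from group means correlated between same-numbered libraries (r = 0.513, 0.347 and 0.515). Between libraries of different numbers r ran from −0.421 to −0.0977. The numbers were therefore taken to pair the libraries in the blocked fit. The methods name no block, so genotype alone was the main design. The main FDRs and the permutation tests thus ignore this pairing. Each member's SE was smaller with the block (0.04 in place of 0.09 for *Sav1*). Alternatives were DESeq2 1.42.0, limma-voom (limma 3.58.1), upper-quartile or RLE scaling, omitting the filter or requiring 10 counts per library, a replicate block, and leaving out each library. The fit was also run on simulated data in which the replicate numbers had no effect. That setting differs from these data, and its outcome is not reported here.

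The members and gene lists were chosen with earlier results of these data known. Named were all members, *Ppp2ca*, *Yap1*, *Wwtr1* and, per list, up to 2 genes with the largest increase and 2 with the largest decrease at an FDR of 0.05. Marker lists for granulocytes, T and NK cells, B cells and dendritic cells each summed to at most 1.34 CPM in any library, and 2 of 8 macrophage markers (*Fcgr1*, *Mertk*) were higher in PP2Ac KO. Single values of some listed genes are not reported here.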

Additional observations from a re-analysis of the deposited data

How the results depend on the processing

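Under the 13 alternatives, 3 to 5 members were higher in PP2Ac KO and 0 lower. *Sav1*, *Mob1a* and *Stk3* were called higher under every one, with log2 fold changes of 0.60 to 0.77, 0.38 to 0.53 and 0.24 to 0.36. The replicate block gave 5 higher members (FDR = 0.00216 for *Mob1b*) and changed no other member's call. Over all genes it called 3343 higher and 3615 lower, against 2470 and 2604. The call of *Lats1* was lost under 5 of the 13. These were upper-quartile scaling and leaving out replicate 1 or 2 of PP2Ac KO or replicate 2 or 3 of PP2Ac WT. Upper-quartile scaling also shifted the median over all genes from −0.02 to −0.09 on the log2 scale and turned *Map4k4* to −0.0195. Signs also turned when 1 library was left out for members with differences near 0, with ranges of −0.130 to 0.0508 for *Lats2*, −0.0472 to 0.00294 for *Nf2* and −0.0365 to 0.133 for *Map4k4*. None of these was called under any alternative, and the cause was not tested. Log2 paralog ratios stayed lower in PP2Ac KO without any 1 library. Groups of 3 libraries limit the permutation tests of the paralog ratios to p = 0.1, and no permutation test was run on single genes. Every member had at least 947 counts in each library, which limits counting error but not the spread between libraries.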
